A study of Rattus norvegicus with 23 samples.

Results

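Atf3, Gadd45a, Egr1 and Dusp1 are genes that cells switch on after injury or stress, and they were followed here in rat dorsal root ganglia (DRG) after a cut of the sciatic nerve. All probes annotated to these genes were taken, which gave 1 probe for each of the 4 genes, out of 5088 probes standing for 4153 genes on the array. The genes were chosen by name with their lesion effects in these data already known, so their ratios are given as a description, with no test. Long-Evans rats had the sciatic nerve transected at postnatal day 20 to 24, and ganglia L4 and L5 were taken 4, 8, 12, 18, 24, 48, 148 or 296 h later. On each of 23 arrays, Cy5-labelled RNA of lesioned ganglia was hybridised together with Cy3-labelled RNA of intact ganglia. Each time had 3 arrays except the last, with 2 arrays at 296 h, and the title and the time label of 1 of these differ slightly in the hour. Some labels speak of cultured cells and of cAMP, which is at odds with the surgery and the removal of ganglia that the treatment notes set out. The labels do not say whether the replicate arrays came from separate animals, so the spread and the p-values below may be technical.

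ATF3 is a bZIP transcription factor of the ATF/CREB family that pairs with other bZIP proteins such as JUN, and in sensory neurons it is a widely used marker of axotomy. GADD45A is a small nuclear protein induced by DNA damage and other stresses, which binds cell cycle and MAP kinase pathway proteins. EGR1 is a zinc finger transcription factor and a classical immediate early gene product of stimulated neurons. DUSP1 is a dual specificity phosphatase that removes phosphate from MAP kinases, and its transcript is itself induced by the kinases that it shuts off.

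Windows around the annotated starts of the genes (250 bases before to 50 after, RefSeq, rat build GRCr8) are shown for Egr1 and Dusp1, because these windows hold the response elements that both genes are known for. Capitals mark the matches, and 3 of the 4 genes had a window in the table used. The array itself measured transcripts, not promoter activity.
Egr1 (chr18:26736828-26737127, plus strand): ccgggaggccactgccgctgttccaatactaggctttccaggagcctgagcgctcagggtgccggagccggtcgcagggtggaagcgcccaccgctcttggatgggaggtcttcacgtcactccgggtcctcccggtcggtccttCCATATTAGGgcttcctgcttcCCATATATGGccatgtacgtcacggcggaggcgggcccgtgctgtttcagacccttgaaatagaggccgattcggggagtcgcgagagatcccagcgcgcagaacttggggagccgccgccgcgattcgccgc
Dusp1 (chr10:17184603-17184902, plus strand): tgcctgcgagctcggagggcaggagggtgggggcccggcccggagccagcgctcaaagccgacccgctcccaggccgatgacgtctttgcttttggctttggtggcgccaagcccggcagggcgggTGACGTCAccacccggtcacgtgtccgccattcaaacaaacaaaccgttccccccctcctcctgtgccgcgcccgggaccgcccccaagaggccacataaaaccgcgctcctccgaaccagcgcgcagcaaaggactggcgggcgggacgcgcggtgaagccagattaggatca
The Egr1 window held 2 CArG boxes, the element bound by serum response factor, at -105 to -96 and at -83 to -74 from the start. A CArG box was present in 1.64% of 33469 promoter windows of the same length. In the Dusp1 window the cAMP response element TGACGTCA stood at -124 to -117, a sequence found in 1.83% of all windows. The Gadd45a window (chr4:97486750-97487049, minus strand) held no match to any of 6 motifs searched on both strands. These were the CArG box, the cAMP response element, the AP-1 site TGACTCA (in 4.63% of windows), the C/EBP-ATF site TGATGCAA (0.795%), the EGR site GCGGGGGCG (2.73%) and the TATA box TATAAA (14.2%). No match overlapped another, and a match is a description of the letters only.

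The deposited values were ratios of the channels, read here as lesioned over intact from the dyes, since the direction is not stated with the values. A log2 ratio of 1 is a doubling in lesioned ganglia and a value of 0 is no difference. No array exchanged the dyes, so a dye effect of a probe would be part of every ratio given. On 17 arrays, called full below, 77 to 143 probes had no value, whereas 735 to 3025 probes had none on the 6 sparse arrays. At 148 h all arrays were sparse, as were replicates 2 and 3 of 48 h and replicate 2 of 296 h, and their log2 ratios were more widely spread (SD over probes 1.216 to 1.606, against 0.506 to 0.913 on full arrays). The 4 genes were measured on all 17 full arrays, while on the sparse arrays Gadd45a was measured on 6, Dusp1 on 5, Egr1 on 3 and Atf3 on none. Among the 4499 probes with a value on every full array, 5.36% shared this complete loss with Atf3. Ratios hold no expression levels, so levels could not be compared between genes, and fewer cells of a type cannot be told apart from less RNA per cell in whole ganglia.

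Atf3 (probe 5H06, Entrez gene 25389) was the first of the 4 genes to rise in mean ratio. At 4 h its log2 ratios were 0.71, 0.27 and 0.58 on the 3 arrays, and at 8 h they were 1.23, 1.41 and 1.50. Every 8 h array lay above every 4 h array, with a difference of 0.86 ± 0.32 (standard error, SE, from the fit). Values of 1.61, 1.13 and 1.90 at 12 h overlapped those of 8 h. The 18 h arrays gave 2.84, 2.05 and 2.93 and the 24 h arrays 2.67, 1.73 and 2.43. All 18 h values were above all 12 h values (difference 1.06 ± 0.32), and those of 24 h overlapped those of 18 h. As fold changes, Atf3 stood 1.43-fold at 4 h, 2.6-fold at 8 h, 2.92-fold at 12 h, 6.1-fold at 18 h and 4.85-fold at 24 h in lesioned over intact ganglia (mean log2 2.61 ± 0.49 at 18 h and 2.28 ± 0.49 at 24 h, SD, n = 3 each).

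After 24 h only the full arrays showed Atf3, 1 at 48 h with a log2 ratio of 3.70 (13-fold) and 1 at 296 h with 1.97 (3.91-fold). Neither has a replicate check, and at 148 h Atf3 was not measured. The 48 h array lay above all 18 h arrays, but its ratios were also more widely spread (SD 0.913) than on any other full array. When the arrays were scaled to 1 spread, the same array gave 2.39 while the 18 h mean became 3.32, which turned the order of these times. At 296 h the Atf3 value lay within the range of the 24 h arrays.

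**Figure D1:**
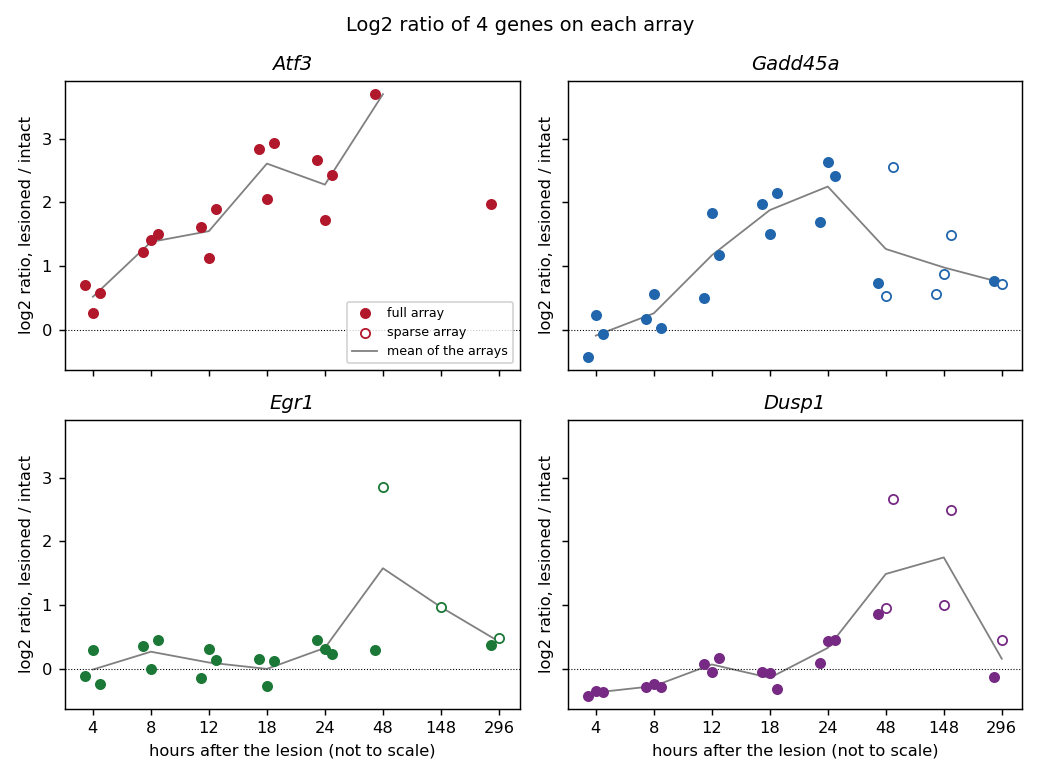
Log2 ratio of lesioned over intact ganglia (vertical axis) of Atf3, Gadd45a, Egr1 and Dusp1 at each time in hours (horizontal axis, not to scale). Each point is 1 array, filled for the 17 full arrays and open for the 6 sparse ones, and the grey line joins the means; Atf3 and Gadd45a climb within 24 h, while the highest Egr1 and Dusp1 points, 2.86 and 2.66, are both open.

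Gadd45a (probe 30G11, Entrez gene 25112) had a later course in its means than Atf3. At 4 h its log2 ratios were -0.42, 0.23 and -0.06, and at 8 h 0.17, 0.56 and 0.03, which spread around 0 or just above it. The 12 h arrays differed widely, with 0.50, 1.83 and 1.18. At 18 h the values were 1.97, 1.51 and 2.15 and at 24 h 1.69, 2.64 and 2.41, all above every value of 4 and 8 h. The mean was 1.88 ± 0.33 at 18 h (3.67-fold) and 2.25 ± 0.50 at 24 h (4.75-fold, SD, n = 3 each), and these times overlapped.

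Later, the mean of Gadd45a was lower but stayed above 0 on every array. The 48 h arrays gave 0.73, 0.53 and 2.55, of which the last, a sparse array, was as high as the 24 h values. Without that array the 48 h mean was 0.63 in place of 1.27. Values at 148 h were 0.57, 0.87 and 1.49, and those at 296 h were 0.77 and 0.72, on 1 full and 1 sparse array. Both 296 h values lay above the 3 values of 8 h and below those of 18 and 24 h. The array range of each time overlapped that of the time before it, but 48 h overlapped 24 h only through the sparse array at 2.55. The other 48 h arrays, at 0.73 and 0.53, lay below every 24 h value (lowest 1.69).

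On the same array, the ratio of Atf3 could be set against that of Gadd45a. Atf3 had the higher log2 ratio on all 3 arrays at 4, 8 and 18 h, by 0.61 ± 0.55, 1.12 ± 0.31 and 0.73 ± 0.17 (SD). At 12 h the difference ran between -0.70 and 1.11, and at 24 h between -0.91 and 0.98, with Atf3 higher on 2 of 3 arrays at either time. The 24 h array with the lowest Atf3 value (1.73) had the highest Gadd45a value (2.64). At 48 h and 296 h the single full arrays put Atf3 higher by 2.97 and 1.20.

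Egr1 (probe 6D02, Entrez gene 24330) showed no early rise at the times sampled. Its log2 ratios were -0.11, 0.29 and -0.23 at 4 h, and 0.36, 0.00 and 0.45 at 8 h. The 12 h arrays gave -0.14, 0.31 and 0.14, and the 18 h arrays 0.15, -0.27 and 0.13. At 24 h all were slightly above 0, with 0.46, 0.31 and 0.23. Over these 15 arrays no value reached 0.5, and the means of the 5 times ran between -0.01 and 0.33. The first sample was taken at 4 h, so an earlier and shorter induction was not sampled.

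At 48 h Egr1 was measured on 1 full array at 0.30 and on 1 sparse array at 2.86, so its highest mean (1.58 ± 1.81, SD, n = 2) rests on the sparse array. The 1 value at 148 h was 0.97, also on a sparse array, and the 296 h values were 0.38 and 0.48. On full arrays alone, Egr1 stood at 0.30 at 48 h, inside its 24 h range. The full and the sparse array at 296 h differed by little.

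Dusp1 (probe 30D06, Entrez gene 114856) began below 0. Its log2 ratios were -0.42, -0.34 and -0.36 at 4 h and -0.28, -0.24 and -0.29 at 8 h, with means of -0.37 ± 0.04 and -0.27 ± 0.03 (SD, n = 3 each). The replicate arrays lay closer together than for the other genes at these times. Neither time passed the threshold in the fit across all probes, which pools the spread of all times. Fitted on the arrays of each time alone, 0 of 5015 probes passed at 4 h and 0 of 5005 at 8 h. That fit therefore cannot decide about Dusp1. At 12 h the values were 0.08, -0.05 and 0.17, and at 18 h -0.05, -0.06 and -0.32. By 24 h all 3 arrays were above 0, at 0.09, 0.44 and 0.45 (mean 0.33 ± 0.20).

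The highest Dusp1 ratios came late. At 48 h they were 0.86 on the full array and 0.96 and 2.66 on the sparse ones, all above the 24 h values (difference of means 1.17 ± 0.40, SE). At 148 h the sparse arrays of replicates 2 and 3 gave 1.0 and 2.50. The means were 1.49 ± 1.01 at 48 h (2.82-fold, n = 3) and 1.75 ± 1.06 at 148 h (3.37-fold, SD, n = 2). The 296 h arrays, with -0.13 and 0.45, lay below both 148 h values (difference -1.59 ± 0.49, SE). Thus the full array and 1 sparse array agreed closely at 48 h, and 1 sparse array at either time was much higher. With the arrays scaled to 1 spread the means were 0.84 at 48 h and 0.93 at 148 h.

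Onset was taken as the first time with a mean log2 ratio of at least 1 and every measured array above 0, and the peak as the highest mean among times with 2 or more arrays. By this reading Atf3 had its onset at 8 h and its peak at 18 h, and Gadd45a its onset at 12 h and its peak at 24 h. The unscaled 48 h ratio of Atf3, 3.70 on 1 array, was higher than its 18 h mean but had too few arrays for the peak rule. Without replicate 2 of 12 h the Gadd45a mean at that time was 0.84, which moves its onset to 18 h. The onset and the peak of Egr1 both fell at 48 h and rest on 1 sparse array. Dusp1 had its onset at 48 h and its peak at 148 h, and with scaled arrays its mean reached 1 at no time. For Atf3, Gadd45a and Dusp1 the peak was not separated from its neighbour in height, since the array ranges of 18 and 24 h overlapped for Atf3 and Gadd45a and those of 148 and 48 h for Dusp1.

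Because the spread of ratios differed between arrays, each gene was also placed among all probes measured on its array. Atf3 was between the top 11.1% and the top 27.1% at 4 h, the top 1.84% to 2.55% at 8 h and the top 0.22% to 0.461% at 18 h. At 48 h it was number 12 of 4976 probes. Gadd45a was in the top 0.419% to 0.978% at 18 h and the top 0.541% to 2.1% at 24 h. On the array of 48 h that gave it a log2 ratio of 2.55, it was in the top 3.35%, so by place that array was lower than the 18 h arrays. Dusp1 lay below the middle at 4 and 8 h, between the top 71.8% and 79.5%. It was in the top 12.9%, 12% and 3.13% at 48 h and in the top 13.3% and 3.38% at 148 h. Egr1 was in the top 34.1% on the full and the top 0.804% on the sparse array at 48 h.

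**Figure D2:**
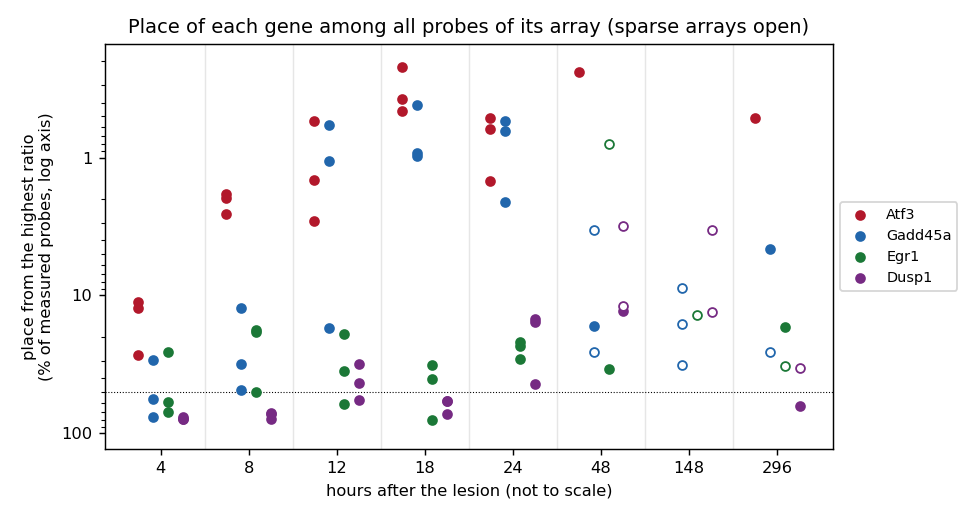
Place of each gene from the highest ratio, as a percent of the probes measured on its array (vertical axis, log scale, highest ratios at the top), at each time in hours (horizontal axis, not to scale). Points are arrays, open where sparse, and the dotted line marks 50%; Atf3 is in the top 0.461% on each 18 h array, and Dusp1 lies below the dotted line on every 4 and 8 h array.

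In the fit of all probes (limma, a mean for each time, Benjamini-Hochberg adjusted p with a threshold of 0.05), the calls of the 4 genes are counted only to place them, since the genes were chosen on the same ratios. At 4 h none of the 4 passed, where 0.538% of all probes did. Atf3 alone passed at 8 h (0.42% of all probes) and at 12 h (0.139%). Atf3 and Gadd45a passed at 18 h (0.379%) and at 24 h (1.42%). At 48 h Gadd45a, Egr1 and Dusp1, all 3 that could be tested, passed where 15.6% of all probes did. At 148 h Gadd45a and Dusp1, both that could be tested, passed beside 28.7%, and at 296 h 0 of 3 passed beside 8.65%. With array weights, or with scaled arrays, Dusp1 was the only gene of those tested that was called at 48 and 148 h, and Gadd45a was then also called at 12 h. The 8 h call of Atf3 was lost whenever 1 of its 3 arrays was left out, its 12 h call held without replicate 2 but not without replicate 1 or 3, and the 18 h call of Gadd45a was lost without replicate 1 or 3. At 48 h the Gadd45a call was lost without replicate 3, and at 148 h without replicate 2 or without replicate 3, where Dusp1 was left with 1 array and could not be tested. No call held when each time was fitted on its own arrays alone, where at most 3 of all probes passed at any time.

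Genes of the same families and pathways were taken from 5 lists with 156 genes, of which 86 had a probe. A gene counted when any of its probes passed, so genes with several probes had more chances than a single probe. The shares of genes and of all probes are therefore not strictly alike. On the first day 1 of 86 related genes passed at 4 h (1.16%, against 0.538% of all probes) and 1 at 8 h (1.16%, against 0.42%). None passed at 12 and 18 h (against 0.139% and 0.379%), and 3 passed at 24 h (3.49%, against 1.42%). At 48 h 16 of 77 tested genes passed (20.8%, against 15.6% of all probes), 12 higher and 4 lower. At 148 h 17 of 54 passed (31.5%, against 28.7%), 9 higher and 8 lower, and at 296 h 6 of 50 (12%, against 8.65%). The median over the related genes lay between -0.08 and 0.13 at all 8 times. The balance of directions at 48 h changed with the treatment of spread. With array weights 2 were higher and 3 lower, and with scaled arrays 1 was higher and 2 lower. Only 1 array of 48 h was full, so no balance is given for full arrays alone. At 148 h 4 were higher and 3 lower with array weights, and 3 higher and 2 lower with scaled arrays.

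**Figure D3:**
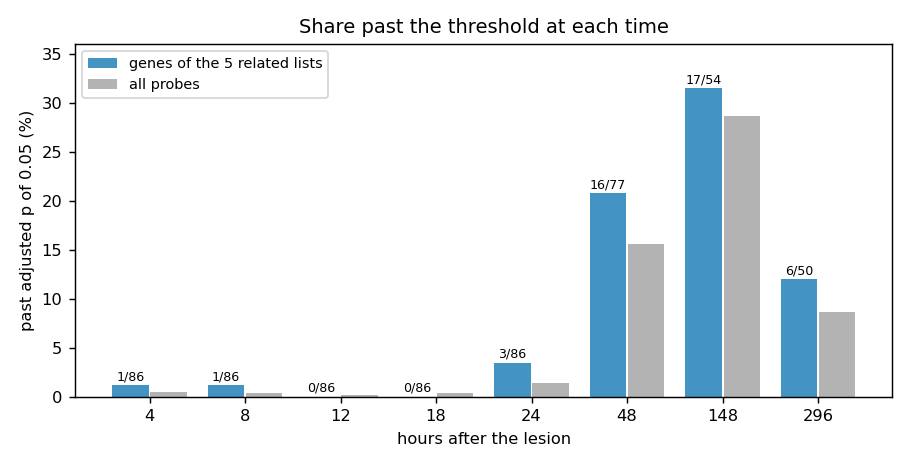
Share of the tested genes of the 5 related lists (blue, counts above the bars) and of all probes (grey) that passed the adjusted p threshold of 0.05, in percent (vertical axis), at each time in hours (horizontal axis). Both shares stay under 4% to 24 h and reach 31.5% and 28.7% at 148 h, where all arrays are sparse. A gene counted when any of its probes passed.

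From the list of AP-1, ATF/CREB and other bZIP factors, 17 genes were on the array. At 4 h Fosl2, a FOS-family gene, had log2 ratios of -1.28, -2.76 and -1.98, all below 0 (mean -2.01 ± 0.74, SD, n = 3, limma adjusted p = 0.00544), a call that was lost without replicate 2. At 8 h Cebpg, a C/EBP family partner of ATF4, rose, with 1.12, 0.72 and 1.91 (mean 1.25 ± 0.60, SD, adjusted p = 0.0478), but no related gene passed at 8 h when any 1 of its 3 arrays was left out. Atf4, the central factor of the integrated stress response, rose at 24 h on probe 52H08, with 1.42, 0.84 and 1.13 (adjusted p = 0.000697). Its other probe, 7D01, had -0.22, -0.13 and -0.41 at that time and did not pass (adjusted p = 0.74). The probes of Atf4 therefore did not move together. At 148 h Nfe2l2, which drives antioxidant genes, rose by 2.48 (n = 2, adjusted p = 0.000558) and Creb1 by 1.11, while Nfil3 and Atf4 (probe 7D01) were lower at -1.21 and -0.75.

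Other members of this family stayed short of the threshold. Jdp2, a close relative of Atf3, had a mean of 1.08 ± 0.58 (SD, n = 3) at 8 h, with adjusted p = 0.156. Junb, Fosl1 and Ddit3, the gene of the stress factor CHOP, passed at no time tested. Jun, Fos, Fosb, Jund and Crem were not analysed here.

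Gadd45g, the relative of Gadd45a on the array, also had ratios above 0 at 8 h (0.45, 0.83 and 1.74) and at 18 h (1.24, 0.62 and 1.44). Neither passed, with adjusted p of 0.129 and 0.0744 in limma. At 24 h, where Gadd45a peaked, the Gadd45g arrays gave 0.24, 0.78 and 0.43, below every Gadd45a array of that time. Gadd45b was not analysed here.

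Of the 14 genes tested in the list of growth arrest and DNA damage response genes, none passed up to 24 h. No more than 1.42% of all probes passed at any of these times. At 48 h 4 rose (28.6%, against 15.6% of all probes). Cdkn1a, the gene of the cell cycle inhibitor p21, rose on probe 49H06 at 48 h (0.99, 1.24 and 1.28, adjusted p = 0.00487) and at 148 h (1.88 and 2.97, adjusted p = 2.66e-05). Its other probe, 29D11, averaged 0.24 and 0.02 at these times. Pcna, the DNA polymerase clamp, rose by 0.89 and 1.06, and Asns and Ccng1 rose at 48 h by 0.90 and 1.04. At 148 h Ppp1r15a, also known as Gadd34, fell by 1.83 ± 0.32 (SD, n = 3, adjusted p = 0.000455), and Trib3 rose by 0.94.

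The other EGR genes did not pass at any time at which they were tested. At 148 h Egr2 and Egr3 were measured on 1 array each and could not be tested. That sparse array, replicate 2, gave 1.06 and 3.11, and 0.97 for Egr1. Egr2 averaged 0.63 at 48 h, with 1.62 on the same sparse array that gave Egr1 its highest value and 0.17 and 0.11 on the others. Egr3 was high on a full array at 48 h (2.01) and low on that sparse array (-0.36). Egr4 reached 0.95 ± 1.26 (SD, n = 3) at 12 h, from arrays at 0.01, 2.38 and 0.46.

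Of 32 further immediate early and early response genes none passed up to 24 h, when at most 1.42% of all probes did. At 48 h 6 rose and 2 fell of 29 tested (27.6%, against 15.6% of all probes). Plk2, a polo-like kinase gene, rose with 1.87 and 1.74 (adjusted p = 0.000843), and Rgs2, a regulator of G protein signalling, with 0.69, 2.00 and 2.65 (adjusted p = 0.000569). Klf9, a Krüppel-like factor gene, had a mean of 0.62 at 48 h and of 2.88 ± 0.05 (SD, n = 2, adjusted p = 7.15e-07) at 148 h, where Klf10 rose by 1.34. Ccn1, a secreted matrix protein gene, fell by 3.42 at 48 h, and the nuclear receptor gene Nr4a2 fell at both times (-1.49 and -1.67). Named after their values were seen, Nfkbia and Zfp36, which both restrain inflammatory signalling, rose at 296 h by 1.25 and 1.38, and Ptgs2 fell by 4.44 (n = 2 each). No related gene passed at 296 h without the sparse replicate 2 or with array weights.

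Among the phosphatases, the mean of Dusp5 lay between -0.41 and 0.24 up to 24 h and did not pass. It was -0.71 at 48 h (limma adjusted p = 0.0712) and -0.13 at 296 h, beside Dusp1 means of 1.49 and 0.16. The difference between these 2 genes was not tested. At 148 h Dusp5 had -1.19, -0.91 and -2.67 (mean -1.59 ± 0.95, SD, n = 3, adjusted p = 0.000244). Dusp6 lay between 0.02 and 0.39 in mean up to 48 h and did not pass. Ptpn5, a brain-enriched tyrosine phosphatase gene, rose at 48 h by 1.39 (adjusted p = 0.0454). It was the 1 gene of the 7 tested that did (14.3%, against 15.6% of all probes).

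Of the kinases on which Dusp1 acts and their upstream kinases, 15 genes were tested up to 48 h. At 24 h 2 passed (13.3%, against 1.42% of all probes) and at 48 h 3 (20%, against 15.6%). At 148 h 4 of 11 passed (36.4%, against 28.7%) and at 296 h 2 of 8 (25%, against 8.65%). Map2k1 (MEK1) fell, with means of -1.23, -3.36, -2.48 and -1.60 at 24, 48, 148 and 296 h. So did Map2k5 (MEK5), with -2.01, -2.98, -3.22 and -2.10. Mapk7, the kinase below MEK5, rose by 0.82 at 48 h and 1.68 at 148 h. Map3k12, the gene of the axon injury kinase DLK, had 0.41 and 2.65 on its 148 h arrays (mean 1.53 ± 1.58, SD, n = 2, adjusted p = 0.0298). All of these late values except those of 24 h rest on sparse arrays in part or in whole.

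**Figure D4:**
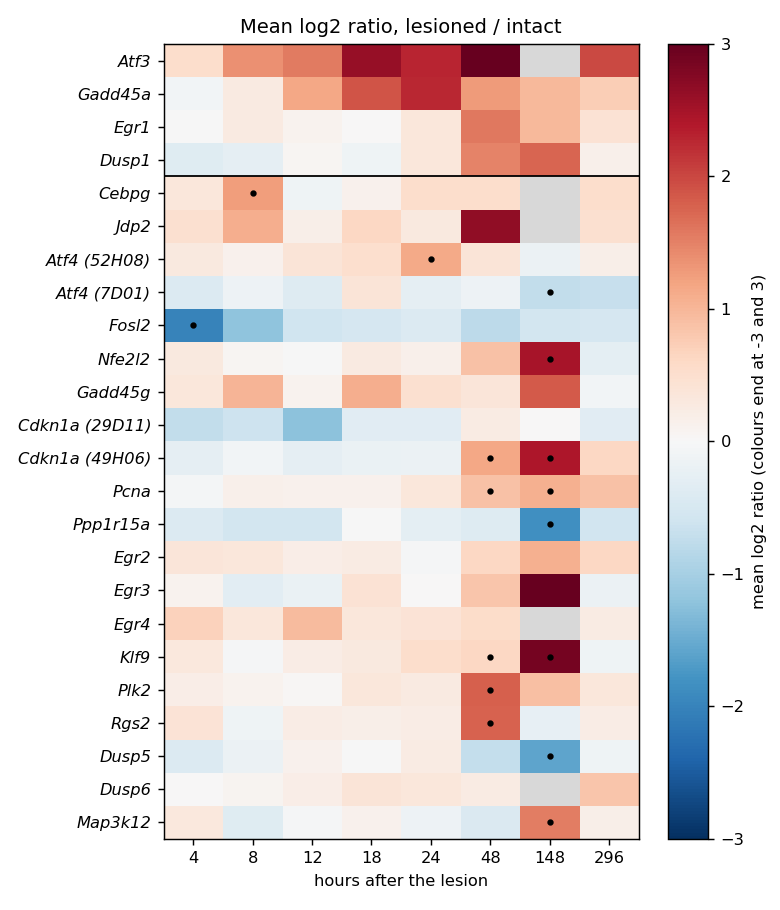
Mean log2 ratio of lesioned over intact ganglia (colour scale, ending at -3 and 3) of the 4 genes (above the line) and of named related genes (below it, with the probe where a gene has 2) at each time in hours. Grey marks no measured array, some cells rest on 1 array, and a dot marks a related gene past the threshold; the Atf3 and Gadd45a means are 2.28 and 2.25 at 24 h, and most dots fall at 48 and 148 h.

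Probes with a course most like each gene were ranked by Pearson's r over the time means, among probes whose means spanned at least 1, as a description with no p. Time means share their arrays, and several of the likest genes follow the shape of the course but not its height. For Atf3, over 5 times and 689 candidates, they were Nt5e (r = 0.992), Vegfd (0.988), Zp3 (0.975), Cldn1 (0.962) and Btg3 (0.943). Of these, the growth factor gene Vegfd was above 0 throughout, at 2.98 at 4 h and 4.28 at 18 h, whereas the nucleotidase gene Nt5e was at -1.24 at 4 h and -0.12 at 18 h. For Gadd45a over 8 times and 1133 candidates they were Reg3b (0.855), Cul5 (0.849), Cldn1 (0.779), Lgmn (0.721) and Gzmb (0.715). Over the 5 times to 24 h alone the likest was Ptp4a1, a tyrosine phosphatase gene (0.956), with means of 0.20 at 4 h and 1.54 at 24 h, and Nt5e and Btg3 were again in the list.

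The genes most like Egr1 and Dusp1 over all compared times had their highest means at 48 or 148 h. For Egr1 the 148 h time, with 1 array, was left out. Over the other 7 times, Taok2 (0.988), Ptpro (0.987), C4bpa (0.979), Cdc25a (0.978) and Csk (0.976) were most like Egr1, each highest at 48 h. At 148 h Ptpro (2.26), C4bpa (4.57) and Cdc25a (1.67) were higher than at 48 h, and Taok2 (1.22) and Csk (1.12) were lower. Over 8 times, Cdk11b (0.987), Slc2a1 (0.976), Pdlim1 (0.961), Nxf1 (0.961) and Ehhadh (0.956) were most like Dusp1. Slc2a1, the glucose transporter gene, averaged 0.43 at 4 h, 1.58 at 48 h and 2.08 at 148 h. Over the 5 times to 24 h the means of these genes spanned less than 1, so none was a candidate there. Their absence from the likest genes of those times therefore has no meaning.

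Markers of other cell types were read beside these courses. In 6 marker lists none passed up to 18 h, when at most 0.538% of all probes did, and at 24 h the neuronal markers Nefh and Uchl1 passed, higher and lower. The late marker counts stand beside 15.6% of all probes past the threshold at 48 h and 28.7% at 148 h. At 48 h 1 of 9 tested leukocyte markers rose (C1qb) and at 148 h 3 of 5 (C1qb, Lyz2 and S100a8), with array medians of the list from -0.23 to 0.58 and from 0.39 to 1.87. Muscle markers Mb and Tnnc2 rose at 148 h (2 of 5, array medians -0.43 to 2.29), as did 1 of 3 blood markers (Hba-a1). Of 11 fibroblast and endothelial markers 3 rose (Dcn, Lum and Pdgfra) and 2 fell (Tie1 and Vwf) at 148 h, and of 13 Schwann cell and satellite glia markers 3 rose and 2 fell. Of the neuronal markers 3 of 15 fell and 1 rose at 48 h, and 7 of 14 fell and 1 rose at 148 h. These late times are those at which Dusp1 was highest, and their part in its ratio was not tested.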

How the data were processed

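The deposited values were 1 linear ratio of the channels per probe and array, made by the authors from Cy5 (lesioned) and Cy3 (intact) signals of dendrimer-labelled RNA on spotted oligonucleotides. Scanner software, background correction and normalization are not given in the sources used here. Array medians were near a log2 ratio of 0, no intensities were used, and precision is limited by how many arrays there are. Ratios were converted to log2 with no offset. The fit (limma 3.58.1, R 4.3.3) had 1 mean for each of 8 times over all 23 arrays, so that times share 1 spread per probe. A probe was tested at a time with at least 2 measured arrays, two-sided, with Benjamini-Hochberg adjustment over all probes of that time and a threshold of 0.05. The fit was tested on simulated data. The limit of 200 missing probes between full and sparse arrays came from an earlier look at these data.

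Platform annotation gave 1 symbol to 4423 probes, several to 2 and none to 663; 4375 Entrez identifiers matched the reference table and 0 symbols changed. Named were the 4 genes, their nearest relatives, up to 6 genes of each related list past the threshold and the 5 genes most like each. The members, the lists and this rule were chosen with earlier results of these data known.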

Additional observations from a re-analysis of the deposited data

Results flagged for a closer look

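Dusp1 was on opposite sides of 0 at different times. All 3 arrays were below 0 at 4 h (mean log2 ratio -0.37), at 8 h (-0.27) and at 18 h (-0.14). All measured arrays were above 0 at 24 h (0.33, n = 3), at 48 h (1.49, n = 3) and at 148 h (1.75, n = 2). The difference between these times was not tested, because the gene was chosen with its ratios known. On full arrays alone the 48 h value was 0.86, and 148 h had no full array.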

How the results depend on the processing

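Median centring, a robust variance and a filter at 2 or 3 arrays left the members' calls as given, where the gene could still be tested. With no filter Atf3 also passed at 48 and at 296 h, on 1 array each. With arrays scaled to 1 spread, Atf3 at 18 h was 3.32 in place of 2.61. The mean of a gene's probes gave nothing further, since each member has 1 probe.

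Counts of probes past the threshold depended on how the spread of the arrays was treated. In the order 4, 8, 12, 18, 24, 48, 148 and 296 h, they were 27, 21, 7, 19, 71, 698, 916 and 245 (higher ones 11, 11, 4, 10, 34, 354, 505 and 128). With scaling they were 83, 59, 110, 143, 228, 130, 197 and 69 (higher ones 22, 20, 42, 51, 76, 69, 115 and 32). With array weights they were 93, 63, 181, 104, 310, 177, 279 and 3. On full arrays only they were 128, 48, 23, 64 and 244 up to 24 h. At 48 h and at 296 h only 1 full array was left, so counts there are not given, and 148 h had none. Fitted on the arrays of each time only they were 0, 0, 0, 3, 3, 1, 0 and 0, and with no filter 296 h had 163. Leaving out 1 array gave 19 to 20, 3 to 11, 4 to 7, 8 to 11, 13 to 33, 443 to 522, 567 to 647 and 5 to 573, where an array left alone at 296 h is assumed to vary like the others.

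Related genes past the threshold numbered 1, 1, 0, 0, 3, 16, 17 and 6. With scaling they numbered 2, 4, 1, 5, 5, 3, 5 and 2, and with array weights 2, 4, 3, 2, 6, 5, 7 and 0. On full arrays only they numbered 2, 2, 0, 1 and 5 up to 24 h, and on the arrays of each time only 0 throughout. The single full arrays of 48 h and 296 h are again left uncounted. With at least 3 arrays 48 h had 9 and 148 h had 11, with no value at 296 h, and with no filter 296 h had 4. Leaving out 1 array gave 0 to 2, 0, 0, 0, 1 to 2, 8 to 13, 13 to 14 and 0 to 15.

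Replicate numbers did not pair the arrays. Deviations from the time means correlated with a median r of -0.00637 over 77 same-number pairs (-0.141 to 0.117), and 7 of 23 arrays correlated best with their own number. With the replicate number as a block, 22, 17, 6, 17, 69, 645, 881 and 170 probes and 1, 0, 0, 0, 3, 12, 17 and 4 related genes passed, and Gadd45a at 296 h was 0.89 in place of 0.74. The block changed no call of the 4 genes.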
